A study of Mus musculus with 2 samples.

Results

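Interferon-stimulated genes were followed through the lymphocytes and the endothelial cells of the neonatal mouse mesentery. The set consisted of 37 genes, taken by gene symbol from the 28692 genes of the count files, and 37 of 37 symbols were found. By role it held 4 genes of signalling and feedback (Irf7, Irf9, Stat2 and Usp18), 17 antiviral effectors, 2 RNA sensors (Ddx58 and Ifih1), 3 genes of the PARP9 complex (Parp9, Dtx3l and Parp14), 8 guanylate-binding and immunity-related GTPases, and 3 genes of antigen processing (Psmb8, Psmb9 and Tap1).

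Cells that meet type I or type III interferon assemble a complex with STAT2 and IRF9 that binds the interferon-stimulated response element (ISRE) of target genes, whereas interferon gamma acts through the gamma-activated site (GAS). The products of the target genes block steps of viral replication, sense foreign nucleic acids, attack vacuoles that hold parasites or bacteria, and cut and transport peptides for MHC class I. Some, such as Irf7 and Usp18, feed back on the pathway itself, Irf7 as a factor that raises interferon production and Usp18 as an inhibitor at the receptor.

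The cells came from the mesentery of C57BL/6 mice at P8 and carried CD31, and droplet-based 3′ scRNA-seq counted unique molecular identifiers (UMIs), each standing for 1 captured RNA molecule. There were 2 libraries, 1 from control and 1 from Flcn iΔEC mice, each from the pooled cells of several animals. Flcn iΔEC mice carried floxed Flcn alleles and Cdh5-BAC-CreERT2, a tamoxifen-dependent Cre under an endothelial promoter, so that lymphocytes are not its target cells. Pups received 40 µg of 4-hydroxytamoxifen per injection, given 4 times from P2 to P6.5. The labels give no further genotype for the control animals. With 1 library per genotype no test was possible, cells were not taken as replicates, and the 95% intervals given with counts, ratios and shares cover counting error only.

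The control library held 6814 cells and 64639756 UMIs and the Flcn iΔEC library 4459 cells and 60805779 UMIs. Counts of Xist were 9 (control) and 63462 (Flcn iΔEC), and those of 4 Y-linked genes were 15535 and 17, so genotype, library and sex of the animals cannot be told apart. Flcn itself had 7.42 CPM (UMI counts of a gene scaled to the same total, the UMIs of the class) in control and 10.1 in Flcn iΔEC blood endothelial cells, 15.6 and 8.99 in lymphatic endothelial cells, and 11.2 and 11.1 in T cells; an inner exon can be lost without a change in 3′ tags, so these values do not check the deletion. Endothelial cells were those with at least 2 Cdh5 UMIs that did not also carry leukocyte or fibroblast markers, numbering 438 (control) and 783 (Flcn iΔEC), and were divided by marker genes into arterial (AEC, 98 and 130 cells), capillary (capilEC, 115 and 49), venous (VEC, 72 and 123), high endothelial venule (HEV, 18 and 36) and lymphatic (LEC, 55 and 312) cells. Blood endothelial cells, 306 and 371, comprised the first 4 subtypes and Prox1+ VECs, which numbered 3 and 33. Lymphocytes numbered 5481 and 2909, with 2612 and 1161 T cells, 2491 and 1394 B cells, 238 and 198 ILC3/LTi cells and 37 and 31 NK cells. The names stand for gates on marker genes and not for sorted cells. In both libraries all 6 lymphatic markers were at least 2-fold higher in LECs than in other endothelial cells, as were all 8 arterial markers in AECs and all 5 capillary markers in capilECs. VECs were the least sharply drawn, with 5 (control) and 4 (Flcn iΔEC) of 6 venous markers past 2-fold, while HEVs had 4 and 5 of 5 and CD8 T cells 2 and 4 of 4.

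The promoters of the set were searched for both elements, because members of the set differed in direction between cell types, as described below. Promoter sequences, 250 bases before to 50 after the transcription start, came from RefSeq (GRCm38.p6) and matched 30 of the 37 genes. Usp18, Rtp4, Zbp1, Parp14, Parp9, Gbp4 and Iigp1 had no entry. The ISRE pattern, GAAA followed by any 2 bases and a further GAAA, read on both strands, occurred in 16 of 30 members (53.3%) and in 3.99% of the promoters of 27025 genes. The GAS pattern TTCNNNGAA, which reads the same on either strand, occurred in 9 members (30%) and in 9.55% of all promoters, and 6 members (20%) held both against 0.614% of all. The ISRE was found in 6 of 6 GTPases with a promoter, in 2 of 2 RNA sensors, in 7 of 15 antiviral effectors, in 1 of 3 signalling genes (Stat2) and in 0 of 3 antigen-processing genes.

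The following stretches of 90 bases upstream of the start, written 5′ to 3′ on the strand of the gene, show the element in 4 antiviral genes that were higher in the Flcn iΔEC library in most cell types (Isg15, Ifit1, Ifit3 and Bst2) and in 3 GTPase genes that were lower there in LECs (Gbp2, Gbp7 and Igtp). Capitals mark matches to the ISRE pattern, or the run of bases that overlapping matches cover.
Isg15, chr4:156200835-156200924, minus strand: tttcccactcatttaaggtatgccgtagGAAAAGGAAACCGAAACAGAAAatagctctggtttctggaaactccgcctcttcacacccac
Ifit1, chr19:34640764-34640853, plus strand: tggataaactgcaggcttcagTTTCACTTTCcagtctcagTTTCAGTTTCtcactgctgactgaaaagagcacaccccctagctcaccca
Ifit3, chr19:34583367-34583456, plus strand: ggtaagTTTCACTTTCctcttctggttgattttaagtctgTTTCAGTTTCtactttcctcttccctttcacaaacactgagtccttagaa
Bst2, chr8:71537547-71537636, minus strand: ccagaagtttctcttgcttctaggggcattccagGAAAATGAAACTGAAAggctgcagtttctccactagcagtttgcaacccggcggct
Gbp2, chr3:142620564-142620653, plus strand: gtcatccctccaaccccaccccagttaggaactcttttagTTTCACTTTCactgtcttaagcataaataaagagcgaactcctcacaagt
Gbp7, chr3:142530243-142530332, plus strand: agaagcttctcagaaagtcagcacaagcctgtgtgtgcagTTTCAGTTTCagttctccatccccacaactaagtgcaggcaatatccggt
Igtp, chr11:58199466-58199555, plus strand: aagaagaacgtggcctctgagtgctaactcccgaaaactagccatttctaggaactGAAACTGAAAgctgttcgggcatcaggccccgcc

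Isg15 held 3 overlapping matches between 78 and 57 bases before the start. Bst2 held 2 overlapping matches, the upstream of which also overlaps a GAS pattern, and Ifit1 and Ifit3 held 2 separate matches each. The single match of Gbp2 lay 59 to 50 bases before the start and that of Gbp7 53 to 44 bases before it. Genes of either direction in LECs thus carried the same pattern, and a match is a description of the letters and not of a bound site.

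**Figure D1:**
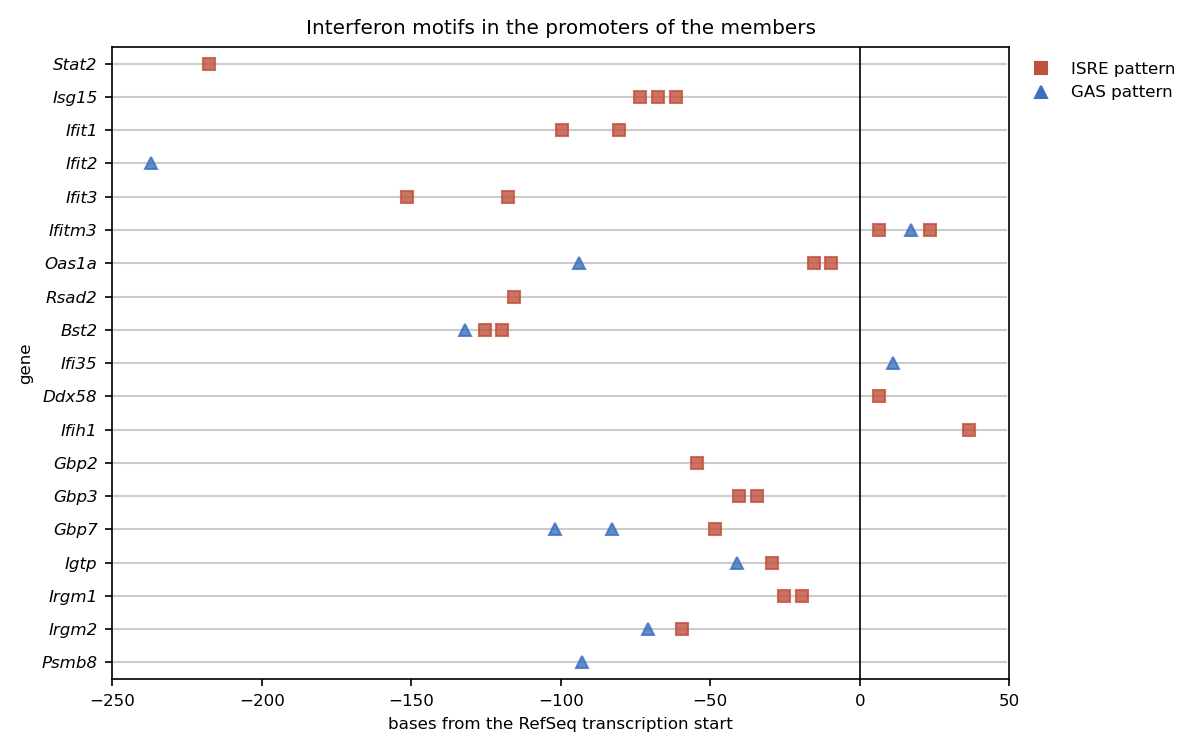
Matches to the ISRE pattern (squares) and the GAS pattern (triangles) in the RefSeq promoters of the members that hold at least 1 match, by bases from the transcription start (x axis), each mark at the centre of a match. The ISRE appears in 16 of the 30 members with a promoter, mostly upstream of the start, and lies after the start in Ifitm3, Ddx58 and Ifih1.

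The first comparison asked where the set is expressed without regard to genotype. Levels are CPM of UMIs summed over the cells of a class, and since 1 molecule gives 1 tag at its 3′ end they carry no correction for gene length. Of the 35 members with at least 50 counts on the 2 sides together in both libraries, 13 were at least 2-fold higher in endothelial cells than in lymphocytes in both libraries, a share of 28.3% being found among all genes, and 4 were at least 2-fold lower, against 10.1% of all genes. The 13 were Isg15, Ifit1, Ifit2, Ifitm3, Usp18, Bst2, Xaf1, Ifih1, Gbp3, Iigp1, Irgm2, Ifi44 and Lgals3bp. The 4 were Zbp1, Psmb8, Psmb9 and Epsti1. When mitochondrial, ribosomal protein and hemoglobin genes were left out of the total, the median of all genes moved by -0.42 (control) and -0.39 (Flcn iΔEC) on the log2 scale, and 7 of the 13 stayed past 2-fold, namely Isg15, Ifit1, Ifitm3, Usp18, Bst2, Iigp1 and Ifi44. These are 20% of the members, against 21.9% of all genes on that scale, so the count of the set was not above that of all genes there.

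Ifitm3, which hinders the fusion of viruses with endosomal membranes, was at 1388 CPM in the control endothelium and 1357 CPM in that of Flcn iΔEC mice, against 8.21 and 25.0 CPM in lymphocytes. Bst2 (tetherin), which holds budding virions at the cell surface, was at 355 and 732 CPM in endothelial cells and 50.1 and 84.5 CPM in lymphocytes. Isg15, a ubiquitin-like modifier, was at 85.8 and 156 CPM against 25.2 and 35.2 CPM. These 3 genes were therefore higher in endothelial cells in each library, by 169-fold and 54.3-fold for Ifitm3, 7.09-fold and 8.66-fold for Bst2, and 3.40-fold and 4.44-fold for Isg15. Ifi44 was close to absent from lymphocytes, with 1 UMI in 5481 control and 4 UMIs in 2909 Flcn iΔEC cells, against 140 and 519 counts in endothelial cells. Iigp1, an immunity-related GTPase, had 30.8 and 43.7 CPM in endothelial cells and 1.17 and 0.876 CPM in lymphocytes.

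The 4 members lower in endothelial cells were 11.4% of the 35, near the 10.1% of all genes, and are described singly. Psmb8, a catalytic subunit of the immunoproteasome, was at 134 and 110 CPM in endothelial cells and 325 and 291 CPM in lymphocytes. Epsti1 was at 8.45 and 3.88 CPM in endothelial cells and 122 and 129 CPM in lymphocytes, with the highest level in CD8 T cells, 360 and 398 CPM. Zbp1, a sensor of Z-form nucleic acids, was at 3.80 and 10.8 CPM in endothelial cells and 24.3 and 27.4 CPM in lymphocytes. Each of these genes kept its order in both libraries. With cell classes from clusters made without the members, Zbp1 and Epsti1 stayed at least 2-fold lower in both libraries, while Psmb8 and Psmb9 did not.

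**Figure D2:**
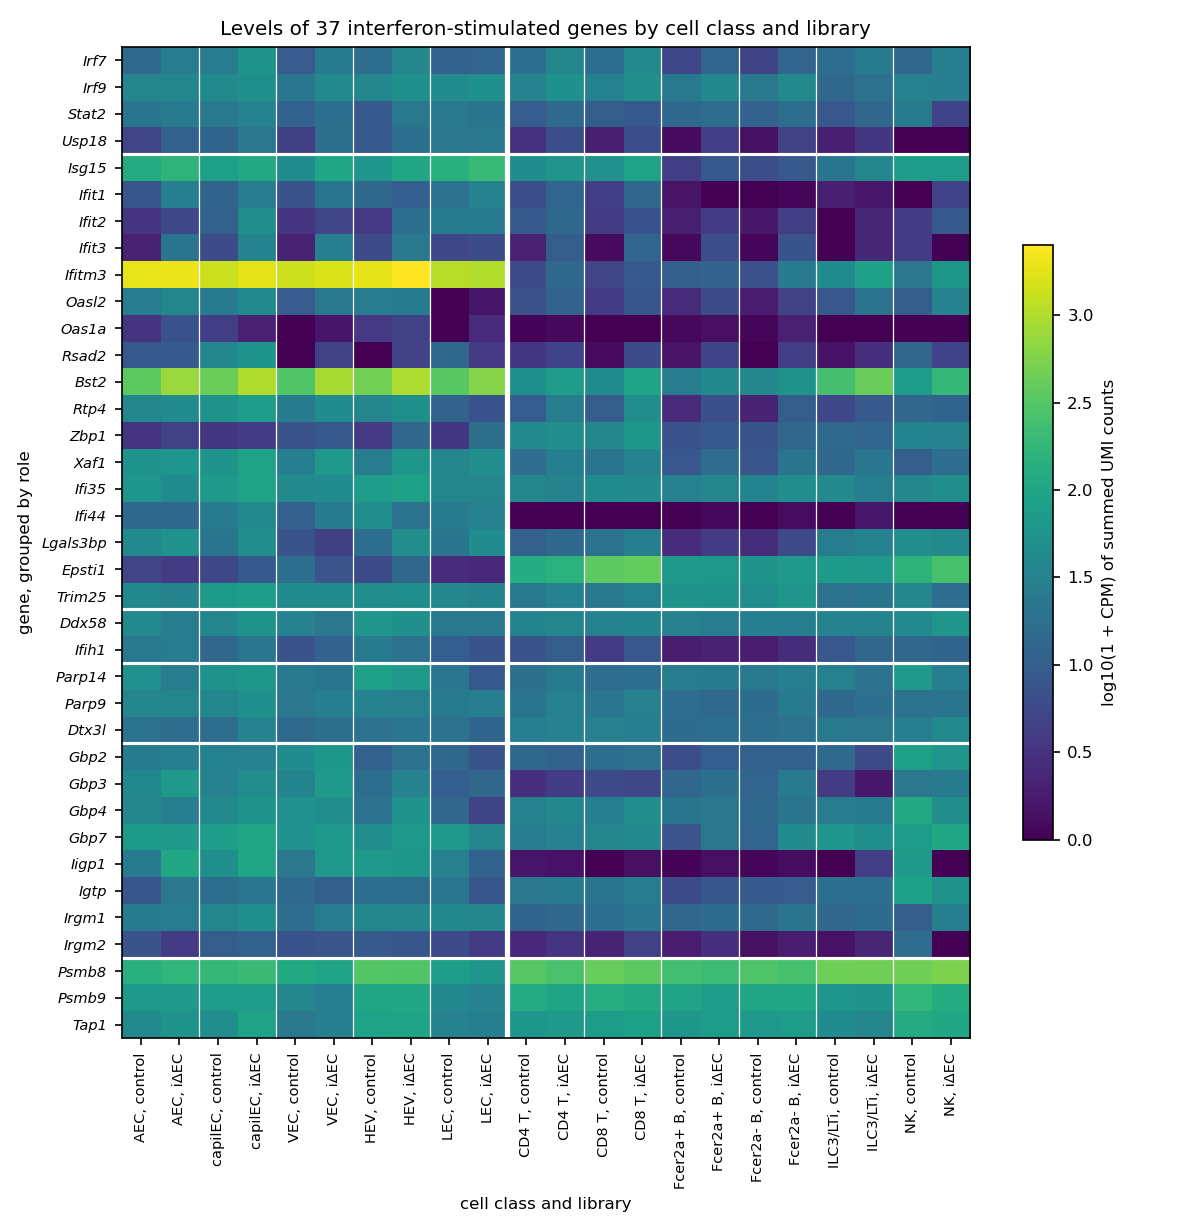
Levels of the 37 genes (rows, grouped by role) in 5 endothelial subtypes (left of the thick line) and 5 lymphocyte types and NK cells (right), control and Flcn iΔEC side by side, as log10(1 + CPM) of summed UMI counts. Ifitm3 and Bst2 stand out in all endothelial columns, Epsti1 in the lymphocyte columns and Psmb8 in these and in HEVs, while Oas1a stays near 0 in most columns.

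Within the endothelium the members did not share 1 ranking. Of 34 members with enough counts in both libraries, HEVs exceeded the rest of the endothelium at least 2-fold in both libraries for 4 (Parp14, Psmb8, Psmb9 and Tap1; 3.29% of all genes), capilECs for 3 (Irf7, Rsad2 and Rtp4; 2.59%), AECs for 2 (Oasl2 and Ifih1; 3.36%), VECs for 1 (Epsti1; 1.71%) and LECs for 1 (Ifit2; 3.32%). HEVs and capilECs were 2-fold lower for 0 members (6.06% and 5.38% of all genes). LECs were at least 2-fold lower for 6 members, Oasl2, Rtp4, Gbp2, Gbp3, Gbp4 and Epsti1, against 7.24% of all genes. AECs were 2-fold lower for Ifit2 and Usp18 (5.90%) and VECs for Ifit2 and Lgals3bp (3.52%). The members lower in AECs (5.88% of the 34) and higher in LECs (2.94%) had shares near those of all genes. The calls of Ifit2 in LECs, AECs and VECs and of Usp18 in AECs were lost when 1 control LEC, described below, was left out, and LECs were then lower for 9 members. With cell classes taken from clusters made without the members, HEVs kept Psmb8 of their 4 calls (2 higher in all, 5.36% of all genes), VECs were higher for 0 members and LECs lower for 10 (9.67%), and as a mean over cells VECs were also higher for 0.

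HEVs are the postcapillary venules through which lymphocytes leave the blood, and in them the 3 antigen-processing genes were higher under the marker gates, Psmb8 also under the clusters. Psmb8 was at 305 CPM in control and 302 in Flcn iΔEC HEVs, against 77.0 and 62.4 CPM in LECs. Tap1, which carries peptides into the endoplasmic reticulum, was at 92.1 and 94.6 CPM in HEVs and 31.1 and 28.1 CPM in LECs. Ifitm3 also had its highest level in HEVs, 1847 and 2510 CPM. The control HEVs were 18 cells. B-cell markers summed to 339 and 325 CPM in HEVs and T-cell markers to 44.7 and 94.6 CPM. The part of leukocyte RNA in the HEV levels was not tested. CapilECs had the highest Rsad2 (viperin, an inhibitor of viral RNA synthesis), at 34.8 and 57.3 CPM, and the highest Irf7, at 25.8 and 56.3 CPM. In VECs Rsad2 had 0 control counts, which allows up to 1.67 CPM, and 3.76 CPM in the Flcn iΔEC library.

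LECs had almost no Oasl2, a 2′-5′ oligoadenylate synthetase-like protein. The 55 control LECs held 0 counts, which allows up to 2.59 CPM, and the 312 Flcn iΔEC LECs held 5 counts (0.562 CPM), whereas blood endothelial cells were at 19.5 and 25.7 CPM. Gbp4 was at 12.1 and 3.93 CPM in LECs and 41.8 and 38.5 CPM in blood endothelial cells. Oasl2 and Gbp4 thus separated the 2 kinds of vessel in each library. Isg15 was at 141 and 200 CPM in LECs and 82.0 and 124 CPM in blood endothelial cells, but 1 control LEC, described below, held 83 of its 163 control counts, and without it control LECs were at 70.1 CPM and thus below blood endothelial cells.

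Among lymphocytes, T cells were at least 2-fold above the remaining lymphocytes in both libraries for 9 of 32 members (5.52% of all genes), which were Isg15, Ifit1, Ifit2, Irf7, Rtp4, Zbp1, Ifih1, Igtp and Epsti1, and lower for Gbp3 (12.6%). B cells were lower for 12 members (11.3%), the same 9 genes and Oasl2, Bst2 and Lgals3bp, and higher for Gbp3 (6.42%). Since T and B cells make up most lymphocytes, these lists largely mirror each other. Isg15 was at 44.2 and 70.4 CPM in T cells and 4.19 and 7.68 CPM in B cells. Gbp3 was at 3.79 and 5.53 CPM in T cells and 12 and 20.8 CPM in B cells.

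ILC3/LTi cells were at least 2-fold higher for 5 members (13.7% of all genes), Ifitm3, Oasl2, Bst2, Ifih1 and Lgals3bp, and lower for 3 (6.64%), Ifit2, Irf9 and Gbp3, shares of 15.6% and 9.38% of the 32 members that lie near those of all genes. Without mitochondrial, ribosomal protein and hemoglobin genes 3 were higher (9.43% of all genes) and 7 lower (9.27%), and Oasl2 and Ifih1 were no longer called. Bst2 was at 245 and 414 CPM in them, against 49.1 and 82.5 CPM in T cells. NK cells were higher for 9 members (12.2% of all genes) and lower for 0 (2.68%), and without those gene families for 7 (8.75%) and 0 (3.5%), with Isg15 and Gbp3 lost. The 9 included the GTPases Gbp2, at 85.2 and 58.2 CPM, and Igtp, at 88.2 and 54.3 CPM, and the NK values rest on 37 and 31 cells. CD8 T cells were higher for Isg15, Lgals3bp and Epsti1 (1.90% of all genes).

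The comparison of Flcn iΔEC with control cells was made in each class apart, because the share of LECs among endothelial cells was 12.6% in control and 39.8% in Flcn iΔEC cells. Over all endothelial cells pooled, 6 of 37 members were at least 2-fold higher in the Flcn iΔEC library (3.67% of all genes) and 2 lower (5.81%), with 14 intervals above 1 (17.6%) and 13 below (38.9%). The pooled ratio of Ifitm3 had its interval below 1 although the gene had intervals above 1 in 4 of the 5 subtypes, so the comparison is followed by class, and pooled endothelial values are named as such. In blood endothelial cells 36 members had at least 50 counts. Of these, 6 were at least 2-fold higher in the Flcn iΔEC library (2.77% of all genes) and 0 were 2-fold lower (3.68%). The ratio interval lay above 1 for 18 members (15.4% of all genes) and below 1 for 3 (29.2%). The median log2 ratio was 0.27 over the members and -0.11 over 11088 genes.

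Among the antiviral effectors of blood endothelial cells 11 of 16 had an interval above 1. Ifit3, of the family that binds foreign RNA ends, was at 2.53 CPM (14 counts) in the control and 22.2 CPM (228 counts) in the Flcn iΔEC library, a ratio of 8.75 (95% interval 5.11 to 16.3). Its relatives Ifit1 and Ifit2 had ratios of 2.45 (1.78 to 3.45) and 2.19 (1.4 to 3.55). The 3 Ifit genes thus lay together past 2-fold, and Bst2 joined them. Bst2 was at 364 and 861 CPM, a ratio of 2.37 (2.26 to 2.49). Isg15 was at 82.0 and 124 CPM, a ratio of 1.52 (1.36 to 1.69). Xaf1, a pro-apoptotic factor, had a ratio of 1.37 and Ifitm3 1.14. Not every effector was higher in this pooled class. Rsad2 (0.810, 0.589 to 1.12), Ifi35 (0.935), Ifi44 (1.16) and Trim25 (0.864) had intervals that included 1, and Epsti1 was at 0.636 (0.427 to 0.95). Rsad2 was highest in capilECs, at 34.8 and 57.3 CPM, and these numbered 115 control and 49 Flcn iΔEC cells. By subtype its log2 ratio was above 0 in 4 of 5, LECs counted among them, with 2 intervals above 1 and 1 below. No count minimum was applied to these subtype ratios, and Rsad2 did not reach it in LECs (15 control and 24 Flcn iΔEC counts). The part of the subtype mix in the pooled ratio was not tested. Oas1a had only 10 and 28 counts and was not called. Epsti1 was higher in lymphocytes than in endothelial cells, as given above, and over all endothelial cells T-cell markers summed to 45.5 CPM in the control and 25.8 CPM in Flcn iΔEC cells and B-cell markers to 316 and 196 CPM (5 of 5 and 6 of 6 detected). Among endothelial cells without a Ptprc UMI the pooled log2 ratio of Epsti1 was -2.06 in place of -1.13. In blood endothelial cells without a Ptprc UMI the log2 ratio of Isg15 was 0.36, below the interval of its ratio above. Those of Ifit1, Ifit3, Usp18, Bst2, Irf7, Iigp1 and Gbp2 stayed within their intervals. Beyond this, the part of leukocyte RNA in the ratios of blood endothelial cells was not tested.

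Of the signalling genes, Usp18 was at 6.69 and 17.4 CPM in blood endothelial cells, a ratio of 2.60 (1.82 to 3.81), Irf7 had a ratio of 1.80 (1.4 to 2.32) and Irf9, the DNA-binding part of the ISRE complex, 1.31 (1.09 to 1.57). Stat2, its partner, had a ratio of 1.23 with an interval that included 1 (0.956 to 1.59). So 3 of the 4 had intervals above 1. The RNA sensor Ddx58 (RIG-I) was at 0.821 (0.685 to 0.985), while Ifih1 (MDA5) was at 1.07 (0.815 to 1.41).

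GTPases and antigen-processing genes of blood endothelial cells were less uniform. Iigp1 was at 34.2 and 77.3 CPM, a ratio of 2.26 (1.93 to 2.66). Gbp3 had a ratio of 1.68 (1.42 to 1.99) and Gbp2 1.23 (1.03 to 1.47). The other 5 GTPases, Gbp4, Gbp7, Igtp, Irgm1 and Irgm2, had intervals that included 1, so 3 of 8 were above 1. Tap1 was at 1.29 (1.10 to 1.52), whereas Psmb8 was at 1.01 and Psmb9 at 0.876 with intervals that included 1. Parp14, an ADP-ribosyltransferase of the PARP9 complex, was at 0.709 (0.599 to 0.841).

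**Figure D3:**
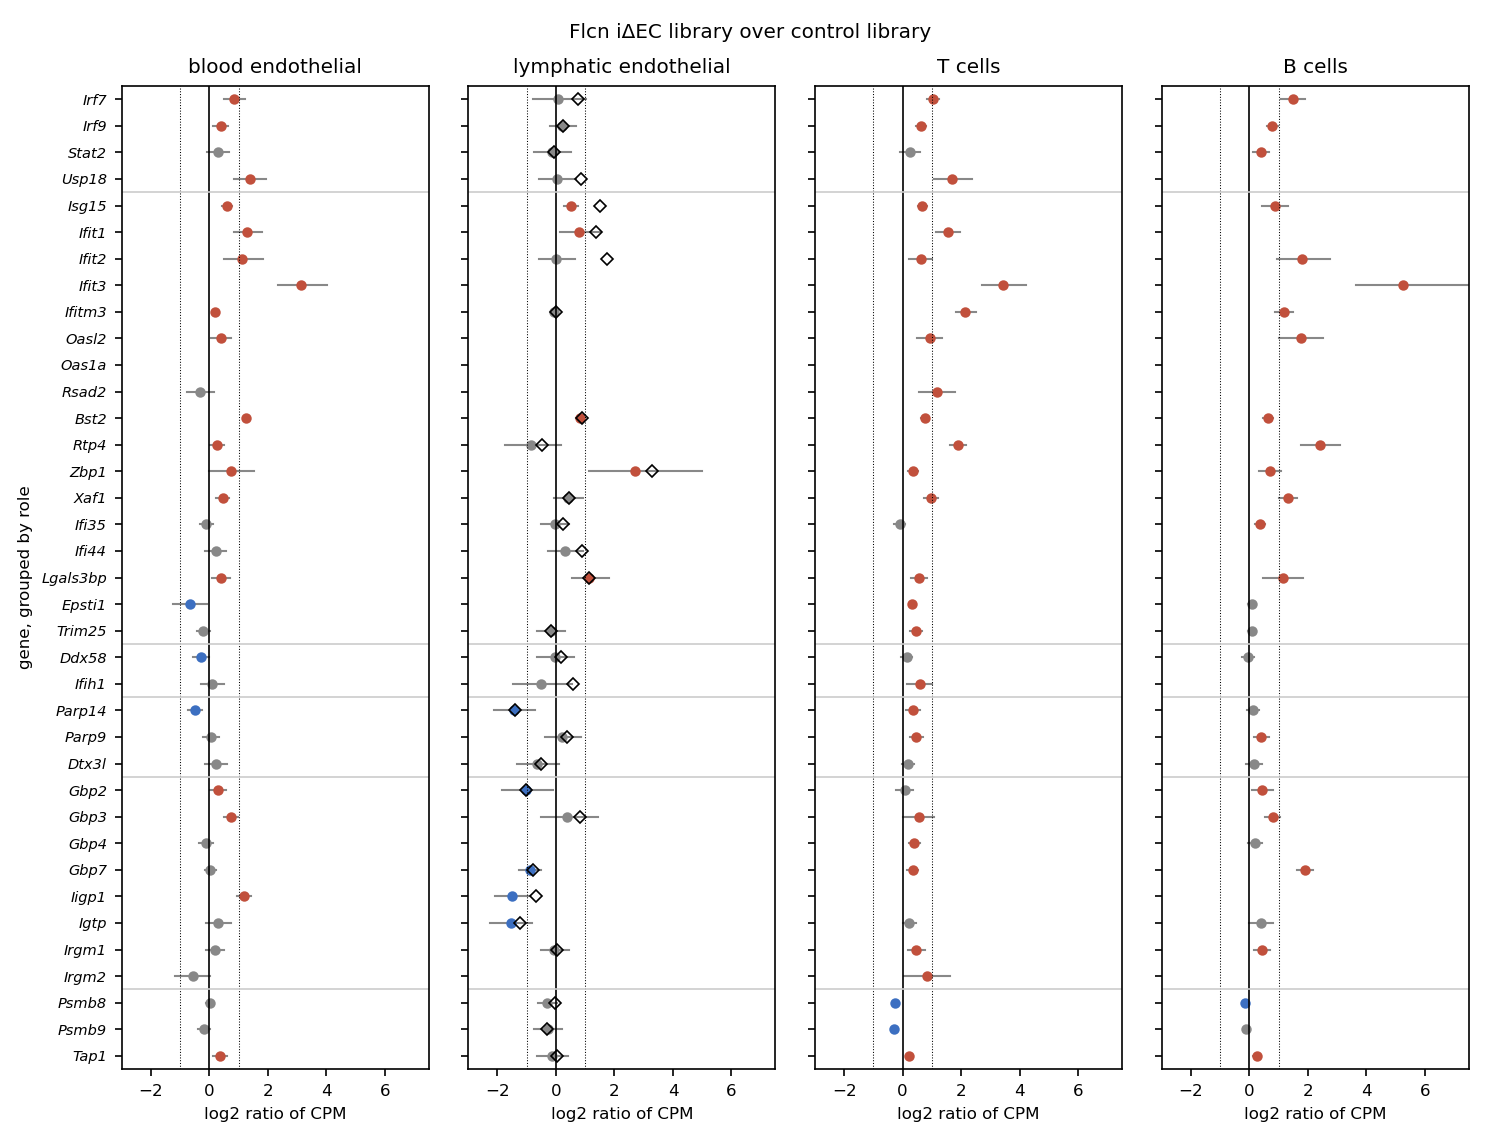
Ratio of the Flcn iΔEC to the control library on the log2 scale (x axis) for members with at least 50 counts (rows, grouped by role) in blood endothelial cells, LECs, T cells and B cells, with 95% counting intervals. Red points have an interval above a ratio of 1, blue points below 1 and grey points include it, the dotted lines mark 2-fold, and open diamonds in the LEC panel give the ratio without 1 control cell. Most effectors lie right of 0 in the blood endothelial, T and B panels, and the GTPases Gbp2, Gbp7, Iigp1 and Igtp lie left of 0 in LECs.

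The subtypes of blood endothelium were not alike in number of calls. VECs had 10 of 30 members at least 2-fold higher (2.51% of all genes) and 1, Epsti1, lower (3.49%), with 16 intervals above 1 (12.6%) and 1 below (18.4%). CapilECs had 6 of 28 higher (3.36%) and 0 lower (3.90%), with 16 intervals above 1 (11.7%) and 0 below (16.9%). The median log2 ratio of the members was 0.54 in either subtype, 0.19 in AECs and 0.26 in HEVs. This order depended on how the subtypes were drawn, since with classes from clusters the medians were 0.18 in VECs, 0.56 in capilECs, 0.14 in AECs and 0.82 in HEVs, and 7 of 34 members were higher in VECs (3.53%) and 12 of 35 in HEVs (2.79%). In those clusters 47 of 71 control VECs fell in 1 cluster that held 1 Flcn iΔEC VEC, and 76 of 123 Flcn iΔEC VECs in another that held 0 control VECs. In VECs Isg15 was at 43.5 and 103 CPM, a ratio of 2.38 (1.85 to 3.08), and Ifit3 had 2 control and 91 Flcn iΔEC counts, 25.6-fold more per UMI (6.87 to 214). Isg15 and Bst2 had intervals above 1 in all 5 endothelial subtypes. For Isg15 these ratios were 1.33 in AECs, 1.37 in capilECs, 2.38 in VECs, 1.81 in HEVs and 1.42 in LECs, and for Bst2 they ran from 1.77 in LECs to 3.03 in VECs. Iigp1 had its largest ratio in AECs, 4.44 (3.21 to 6.27), and a ratio of 0.955 in HEVs. Parp14 was at 0.520 (0.38 to 0.710) in AECs.

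In LECs 4 of the 6 GTPases with enough counts had intervals below 1, and Gbp3 and Irgm1 did not. Of 30 members with 50 counts, 2 were at least 2-fold higher in the Flcn iΔEC library (3.86% of all genes), Zbp1 and Lgals3bp, and 4 were 2-fold lower (8.00%), Parp14, Gbp2, Iigp1 and Igtp. Intervals lay above 1 for 5 members (10.8%) and below 1 for 5 (26.2%). The median log2 ratio was -0.08 over the members and -0.22 over 9811 genes. The 6 GTPases had a median log2 ratio of -1.0. The LECs of the 2 libraries lay largely in different clusters, with 35 of 54 control LECs that the clusters held as endothelial in 1 that held 7 of 310 Flcn iΔEC cells, and 146 Flcn iΔEC cells in another that held 1 control cell. Igtp was at 20.8 CPM in control and 7.08 in Flcn iΔEC LECs, a ratio of 0.341 (0.210 to 0.571), and Gbp7 at 64.0 and 34.5 CPM, a ratio of 0.539 (0.417 to 0.705). Gbp2, which is recruited to pathogen vacuoles, was at 13 and 6.41 CPM, a ratio of 0.494 (0.276 to 0.939). Zbp1 was at 2.59 CPM (3 counts) and 17.0 CPM (151 counts), a ratio of 6.54 (2.20 to 32.1).

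A single control LEC carried much of the signal of its class. It had 14981 UMIs, 1.30% of the UMIs of all 55 control LECs, and held 135 of the 256 UMIs of Isg15, Ifit1, Ifit2, Ifit3, Usp18 and Rsad2. Their sum in this cell was 9011 CPM, and the next control LEC had 1874 CPM. It held 83 of 163 UMIs of Isg15 (50.9%), 19 of 27 of Ifit2, 11 of 25 of Usp18, 15 of 15 of Rsad2 and 15 of 34 of Iigp1. The cell had 7 UMIs of Cdh5, 9 of Lyve1 and 3 of Prox1, and 0 of Ptprc, Cd3e and Lyz2, so it carried endothelial and lymphatic markers and no UMI of these leukocyte markers.

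Without this cell the LEC values moved. Isg15 was at 70.1 CPM in the remaining 54 control LECs, and its ratio was 2.86 (2.28 to 3.62) in place of 1.42 (1.21 to 1.68). Ifit1 was at 2.56 (1.5 to 4.74), Ifit2 at 3.35 (1.67 to 7.87) in place of 1.01, and Usp18 at 1.80 (1.05 to 3.35) in place of 1.02. Then 5 of 30 members were at least 2-fold higher (3.84% of all genes) and 3 lower (8.05%), intervals lay above 1 for 8 and below 1 for 4, and the median log2 ratio was 0.17 over the members and -0.22 over all genes. The ratios of Isg15, Ifit1, Ifit2 and Usp18 were thus higher without the cell, while Gbp2 (0.488), Gbp7 (0.579), Igtp (0.425) and Parp14 (0.379) kept intervals below 1. Iigp1 moved from 0.356 (0.238 to 0.543) to 0.628 with an interval that included 1 (0.38 to 1.09). T-cell markers summed to 23.3 CPM in control and 8.99 in Flcn iΔEC LECs (5 and 4 of 5 detected), B-cell markers to 158 and 218 CPM (6 of 6 in both), macrophage markers to 65.7 and 22.3 CPM (2 and 7 of 7) and NK markers to 0 and 1.69 CPM (0 and 5 of 5), and their part in the LEC ratios was not tested.

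**Figure D4:**
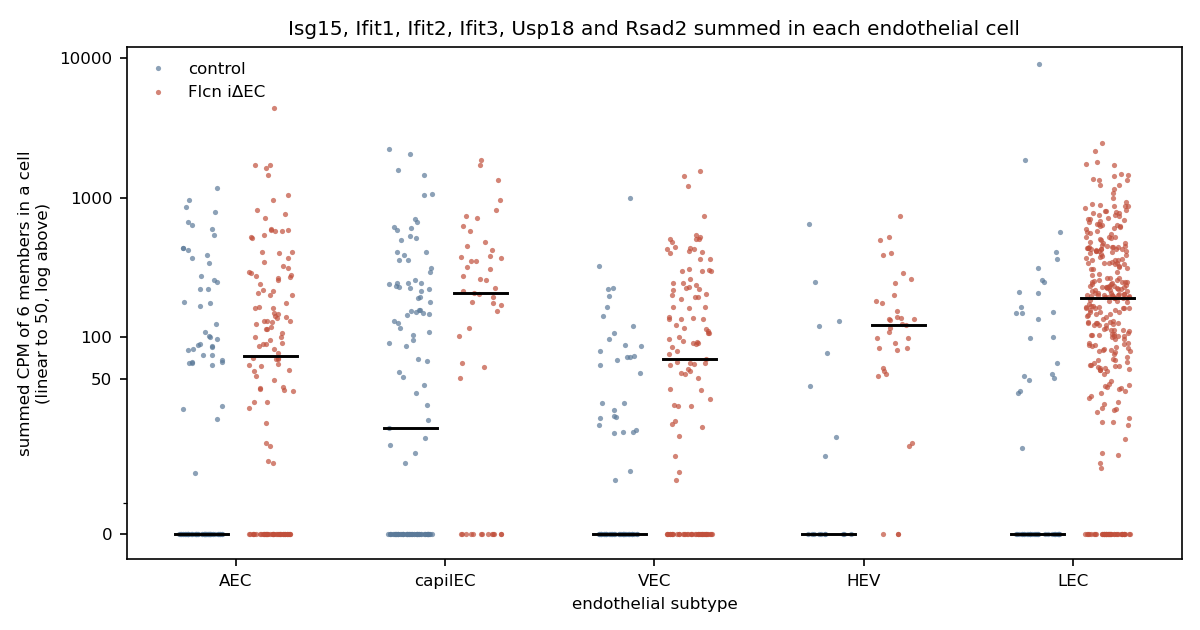
Summed CPM of Isg15, Ifit1, Ifit2, Ifit3, Usp18 and Rsad2 in every endothelial cell (points) by subtype (x axis) and library, on an axis linear to 50 and logarithmic above, with the median as a bar. The control LEC at 9011 CPM lies above all other cells. The Flcn iΔEC medians, from 69.2 CPM in VECs to 208 CPM in capilECs, lie above the control medians, which are 0 except in capilECs (34.2 CPM). Cells are not thinned here, and a median of 0 depends on depth. Control cells had the lower median UMIs in each subtype but VECs (22767 against 20746).

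The same 6 genes were also counted per cell, after each cell had been thinned at random to 2000 UMIs so that the deeper Flcn iΔEC cells (median 21142 against 13314.5 UMIs in blood endothelial cells) were not favored. Of these genes Ifit1, Ifit2, Ifit3 and Usp18 were already past 2-fold in blood endothelial cells. The shares thus restate those ratios per cell and are no separate support for them. In blood endothelial cells 15.9% of control (95% interval 12 to 20.5) and 29.4% of Flcn iΔEC cells (24.8 to 34.3) had at least 1 UMI of the 6 genes. In LECs the shares were 18.2% (9.08 to 30.9) and 33.0% (27.8 to 38.5), a count on which the single control cell weighs as 1 of 55. Shares were 8.33% and 26.0% in VECs, 19.5% and 38.8% in capilECs and 16.5% and 28.5% in AECs. The Flcn iΔEC share was the higher in each of these subtypes, and the intervals of the libraries did not overlap in blood endothelial cells or in VECs.

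Among T, B and ILC3/LTi cells the 6 genes were seen in fewer cells. In T cells 10.4% of control (9.29 to 11.7) and 16.2% of Flcn iΔEC cells (14.2 to 18.5) had a UMI, in CD8 T cells 11.1% and 20.4%, in B cells 1.10% (0.728 to 1.60) and 3.09% (2.25 to 4.14), and in ILC3/LTi cells 3.11% and 4.21%. NK cells went the other way, at 14.7% (4.95 to 31.1) and 3.33% (0.0844 to 17.2), which were 5 of 34 and 1 of 30 cells. Thinned alike, Cdh5 was found in 0.503% of control and 1.30% of Flcn iΔEC T cells and in 0.735% and 0.791% of B cells. The gate kept only T and B cells with fewer than 2 Cdh5 UMIs. These shares can thus be held low by the gate and do not measure free endothelial RNA, whose part was not tested. The T-cell shares of the 6 genes lay above the share of Cdh5 in both libraries, though 6 genes are set against 1 there. In B cells Isg15 alone was at 0.531% and 1.65%. Its control value was below that of Cdh5. Since the Cdh5 share is no measure of background, whether Isg15 exceeds background in control B cells was not tested. Ifitm3 was at 0.967% and 2.16% in T cells and 1.18% and 2.16% in B cells, values above the shares of Cdh5 but of the same low order.

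Bst2 was found in 47.5% (control) and 72.4% (Flcn iΔEC) of endothelial cells (91.8% and 99.2% without thinning), 9.09% and 11.9% of T cells (27.9% and 39.9%) and 5.64% and 7.84% of B cells (16.4% and 27.0%). Isg15 was found in 12.6% and 13.7% of blood endothelial cells, shares whose intervals overlap although the summed level was 1.52-fold higher, and in 14.5% and 27.6% of LECs. Irf7 was found in 3.21% of control (2.56 to 3.96) and 7.6% of Flcn iΔEC T cells (6.14 to 9.28), intervals that do not overlap. In blood endothelial cells it was found in 3.31% (1.6 to 6.01) and 3.5% (1.88 to 5.92) of cells (19.6% and 36.7% without thinning), intervals that overlap after thinning although the summed level was 1.80-fold higher, so that no difference in share was detectable at this depth.

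**Figure D5:**
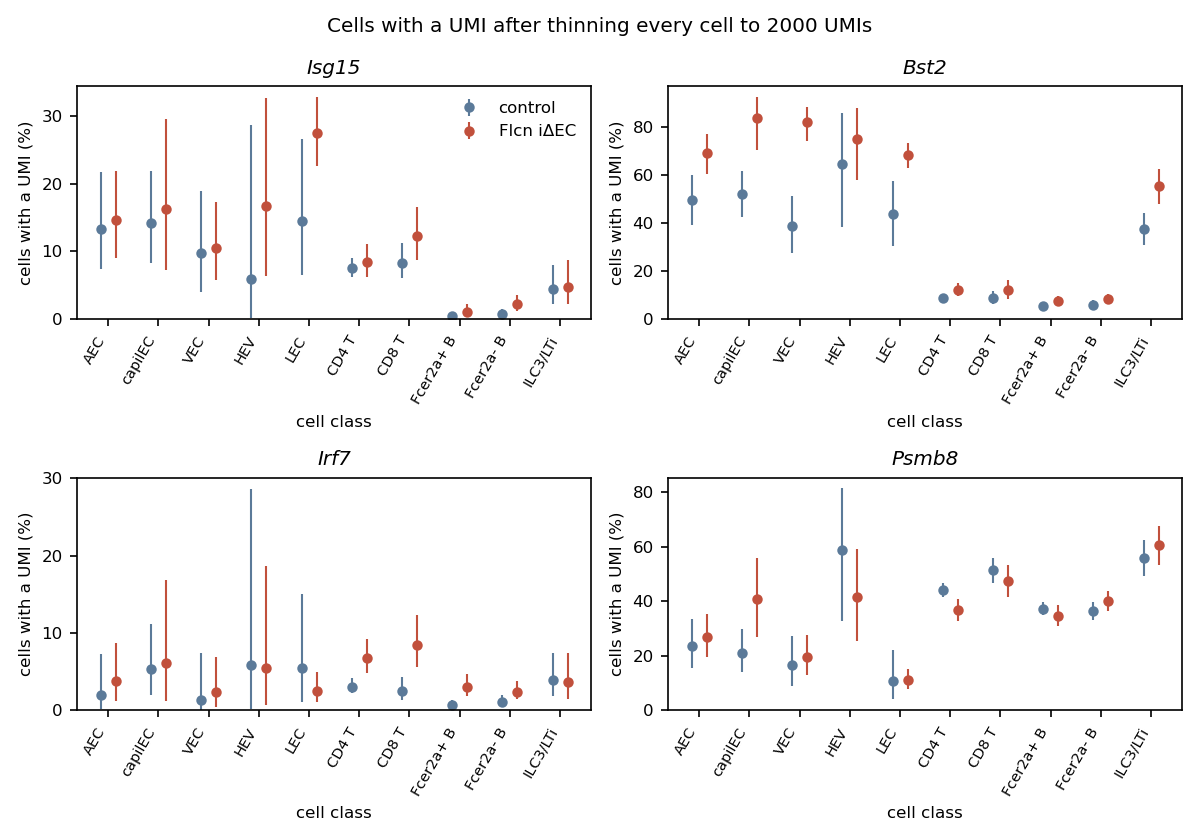
Percent of cells with at least 1 UMI of Isg15, Bst2, Irf7 and Psmb8 (y axes) by cell class (x axis), after thinning each cell to 2000 UMIs, with exact 95% binomial intervals. Bst2 shares are higher in the Flcn iΔEC library in each class shown, Irf7 shares differ most in the T cells, and Psmb8 shares are lowest in LECs.

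In lymphocytes, which the Cre does not target, the members were also higher in the Flcn iΔEC library. Of 35 members with 50 counts in all lymphocytes, 7 were at least 2-fold higher (3.41% of all genes) and 0 lower (1.11%), with 27 intervals above 1 (22.6%) and 2 below 1 (28.2%). The median log2 ratio was 0.48 over the members and -0.02 over 12119 genes. By role, 4 of 4 signalling genes, 14 of 15 antiviral effectors, 1 of 2 RNA sensors, 2 of 3 genes of the PARP9 complex, 5 of 8 GTPases and 1 of 3 antigen-processing genes had intervals above 1. Markers of other cells also differed in all lymphocytes, those of neutrophils summing to 63.4 (control) and 1.49 CPM (Flcn iΔEC), with 5 and 6 of 6 detected, of mesenchymal cells to 11.4 and 108 CPM (7 and 8 of 8) and of endothelial cells to 157 and 134 CPM (8 of 8 in both), and their part in the ratios was not tested. The T and B cells of the 2 libraries also fell mostly in different clusters, with 537 of 1161 Flcn iΔEC T cells in 1 that held 29 of 2612 control T cells, and 868 of 1394 Flcn iΔEC B cells in 1 that held 52 of 2491. The 2 genes with intervals below 1 were the immunoproteasome subunits Psmb8, at 0.895 (0.871 to 0.921), and Psmb9, at 0.895 (0.854 to 0.938). Tap1, which lies beside Psmb9, was at 1.18 (1.11 to 1.25).

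T cells had 7 of 34 members at least 2-fold higher (2.08% of all genes) and 0 lower (0.887%), with 26 intervals above 1 (15.0%) and 2 below 1 (22.8%). Irf7 was at 17.6 CPM (361 counts) in control and 36.1 CPM (353 counts) in Flcn iΔEC T cells, a ratio of 2.06 (1.77 to 2.39). Rtp4, a Golgi chaperone of receptors, was at 8.75 and 32.7 CPM, a ratio of 3.73 (3.10 to 4.50). Ifit3 was at 0.924 CPM (19 counts) and 9.93 CPM (97 counts), a ratio of 10.7 (6.52 to 18.6). Irf7, Rtp4 and Ifit3 were all past 2-fold, and Usp18 (3.25), Ifit1 (2.95) and Rsad2 (2.25) were too. Isg15 was at 44.2 and 70.4 CPM, a ratio of 1.59 (1.44 to 1.76), which was 1.34 (1.15 to 1.56) in CD4 and 1.84 (1.53 to 2.22) in CD8 T cells. Ifitm3 had a ratio of 4.43, but 60 of its 225 counts in Flcn iΔEC T cells came from 1 cell.

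B cells had 9 of 29 members at least 2-fold higher (1.48% of all genes) and 0 lower (1.45%), with 20 intervals above 1 (12.6%) and 1 below 1 (30.7%). Gbp7 was at 8.81 CPM (162 counts) and 33.2 CPM (402 counts), a ratio of 3.77 (3.13 to 4.55), whereas in T cells it was at 30.3 and 38.7 CPM, a ratio of 1.28 (1.12 to 1.45). Rtp4 was at 1.41 and 7.6 CPM, a ratio of 5.37 (3.44 to 8.65). Irf7 was at 4.19 and 11.8 CPM, a ratio of 2.82 (2.12 to 3.77). Rtp4 and Irf7 were thus past 2-fold in T cells and B cells, and Gbp7 in B cells. Ifit3 rested on 3 control counts (0.163 CPM) against 75 (6.19 CPM), which gives a ratio of 38.0 (12.5 to 188). For Isg15, with 77 and 93 counts, the ratio was 1.83 (1.34 to 2.51), over a control level that was not tested against background. Ifitm3 had a ratio of 2.29, and 75 of its 229 Flcn iΔEC counts came from 1 cell.

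In ILC3/LTi cells Bst2 was at 245 and 414 CPM, a ratio of 1.69 (1.5 to 1.90), and Isg15 at 19.8 and 35.9 CPM, a ratio of 1.81 (1.19 to 2.78). Bst2 had intervals above 1 in all 5 of the largest lymphocyte types (CD4 T, CD8 T, Fcer2a+ B, Fcer2a- B and ILC3/LTi). Oasl2 did so only when no count minimum was applied. Its 23 control and 51 Flcn iΔEC counts over all B cells are too few for both B-cell types to reach the minimum. Within ILC3/LTi cells intervals lay above 1 for 3 of 20 members (7.88% of all genes) and below 1 for 1 (10.9%), Parp14, at 0.622 (0.386 to 0.979), and the median log2 ratio was 0.025. In NK cells Isg15 was at 76.1 and 73.7 CPM (25 and 19 counts), a ratio of 0.969 (0.505 to 1.83), and no order of the libraries could be read at that depth.

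The set holds genes induced by the pathway, and 36 further genes of its ligands, receptors, kinases, factors, sensors and inhibitors were read beside it. Of 25 such genes with 50 counts in blood endothelial cells, intervals lay above 1 for 4 (15.4% of all genes) and below 1 for 11 (29.2%). In LECs they did for 2 (10.8%) and 8 (26.2%) of 23. In T cells they did for 9 (15.0%) and 5 (22.8%) of 25, and in B cells for 9 (12.6%) and 8 (30.7%) of 25. The counts above 1 in blood endothelial cells and LECs thus lay near the shares of all genes. Ifng, the ligand of the gamma receptor, was at 14.8 and 29.3 CPM in T cells, a ratio of 1.98 (1.68 to 2.33), and at 462 and 1005 CPM in NK cells, a ratio of 2.17 (1.77 to 2.67). Socs3, an inhibitor of cytokine receptors, was at 47.8 and 146 CPM in T cells, a ratio of 3.06 (2.82 to 3.32), and had a ratio of 2.33 in B cells and 2.21 in NK cells. The ligand and the inhibitor were thus both higher in the Flcn iΔEC library in T cells and NK cells.

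Dhx58 (LGP2), an RNA sensor related to Ddx58 and Ifih1, had a ratio of 2.20 (1.34 to 3.79) in blood endothelial cells, 2.39 (1.18 to 5.64) in LECs, 2.43 (1.55 to 3.83) in T cells and 2.90 (1.89 to 4.53) in B cells. It was the pathway gene with intervals above 1 in each of these 4 classes. Socs1, an inhibitor of JAK kinases, was at 17.4 and 32.6 CPM in blood endothelial cells, a ratio of 1.88 (1.49 to 2.38). Irf1, a factor that binds GTPase promoters, was at 28.5 and 12.6 CPM in LECs, a ratio of 0.441 (0.297 to 0.672), and at 0.914 (0.786 to 1.07) in blood endothelial cells. Irf8 was at 14.5 and 30.7 CPM in blood endothelial cells, a ratio of 2.12 (1.66 to 2.75), and at 38.9 and 15.6 CPM in LECs, a ratio of 0.401 (0.285 to 0.575). Irf1 and Irf8 were thus lower in Flcn iΔEC LECs, as were Gbp2, Gbp7, Igtp and, with the single control cell included, Iigp1. Without that cell the LEC ratios were 0.449 (0.301 to 0.688) for Irf1 and 0.396 (0.281 to 0.568) for Irf8. Gbp3 and Irgm1 had no interval below 1 in LECs, where 26.2% of all genes had one, and a link between these genes was not tested. The receptor gene Ifnar1 was at 0.788 (0.692 to 0.899) in blood endothelial cells and 1.0 (0.905 to 1.10) in T cells.

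Some members share sequence with neighbours or copies, and the counting could divide or drop their reads. This holds for Ifit3, Oas1a, the Gbp genes and Iigp1, which have near-identical relatives, and for Igtp and Irgm2, which overlap on the same strand. Their values are uncertain to that extent.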

How the data were processed

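The authors sequenced CD31+ mesenteric cells of 1 control and 1 Flcn iΔEC library and deposited UMI counts per gene and cell without normalization, with Cell Ranger 3.0 and mm10 named in the submitters' processing notes. Counts were read in Python 3.11.15 with scipy 1.17.1. The members and gene lists were chosen with earlier results of these data known. Cell classes were gated on markers other than the members, with limits set after the data had been seen. Cells with at least 2 Cdh5 UMIs were endothelial, 128 control and 109 Flcn iΔEC ones with leukocyte or fibroblast markers were left out as mixed, and 17.6% and 12.8% of the rest fell in no subtype. The gate served against doublets, and Scrublet in scanpy 1.11.5 called 142 and 37 cells, of them 0 endothelial and 11 and 7 lymphocytes. The libraries shared 6 barcodes.

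Counts were summed per class and library and scaled to CPM. Except where stated, ratios needed at least 50 counts on both sides together. Ratios carry exact conditional intervals, shares Clopper-Pearson intervals, and log2 ratios 1 added count. A call was a 2-fold ratio. Where no count was seen, 3 counts gave the upper limit. Any member could be named, and other genes only from the pathway and marker lists. Promoters were matched by symbol. The ratio step was tested on simulated counts.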

Additional observations from a re-analysis of the deposited data

Results flagged for a closer look

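In 4 genes the ratio of the Flcn iΔEC to the control library lay on opposite sides of 1 in 2 classes, with each interval excluding 1. The differences themselves were not tested, and each rests on 1 library per genotype. Gbp2 had a ratio of 1.23 in blood endothelial cells and 0.494 in LECs. Iigp1 was at 2.26 in blood endothelial cells and 0.356 in LECs, and without the single control LEC described above the latter was 0.628 with an interval that included 1 (0.38 to 1.09). Parp14 was at 0.709 in blood endothelial cells and 1.12 in all lymphocytes. Epsti1 was at 0.636 in blood endothelial cells and 1.06 in all lymphocytes, where its level was far higher.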

How the results depend on the processing

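No paired analysis was possible because there was 1 library per group. Recomputed ratios and medians were scored as the same when they stayed within their interval, and counts of calls when equal or within a fixed fold. Of 1169 recomputed values, 1091 were the same, 74 moved and 4 turned. The 4 were Ifitm3 in all endothelial cells, with a log2 ratio of -0.03 that became 0.016 without mitochondrial, ribosomal protein and hemoglobin genes, 0.00885 as a mean over cells, 0.13 with cell classes from clusters made without the members, and 0.23 with 5 subtypes weighted equally.

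Without those gene families 1 member was 2-fold lower in all endothelial cells (5.12% of all genes). In endothelial cells 7 were higher than in lymphocytes (21.9%), and ILC3/LTi cells had 3 higher (9.43%) and 7 lower (9.27%). As means over cells, AECs had 1 lower (5.74%) and VECs 0 higher (1.80%). With no count minimum B cells had 14 higher and 1 lower. With clusters, all endothelial cells had 0 lower, and 2 members were lower in endothelial cells than in lymphocytes (8.28%). Over other endothelial cells 0 were then higher in VECs (1.69%), 2 in HEVs (5.36%) and 10 lower in LECs (9.67%). The medians were 0.43 in blood endothelial cells, 0.18 in VECs, 0.82 in HEVs and 0.72 for Flcn iΔEC capilECs over other endothelial cells. The remaining alternatives were chosen after seeing the data. In endothelial cells with no Ptprc UMI 4 members were lower in all and 1 in blood endothelial cells. Without the single control LEC 5 were higher in LECs, and over other endothelial cells 0 were lower in AECs, 1 lower in VECs and 0 higher in LECs. Without the top cell of each member, 1 was lower in all endothelial cells and 5 higher in LECs. With equal weights for subtypes, 3 were higher and 0 lower in all endothelial cells. Counts without a share of all genes beside them show only how far calls moved and cannot be read against all genes. The cause of these changes was not tested.

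Thinned to 1000 UMIs, Isg15 was found in 7.34% and 12.5% of endothelial cells in the control and Flcn iΔEC libraries and 4.34% and 6.80% of T cells, and Bst2 in 28.7% and 46.8% of endothelial cells. Without thinning these were 36.3% and 66.8%, 22.3% and 29.1%, and 91.8% and 99.2%. Control LECs (55), control HEVs (18) and NK cells (37 and 31) limit what low members can show.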
